A study of Bos taurus with 8 samples.

Results

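Superoxide dismutase 1, 2 and 3 (SOD1, SOD2, SOD3) and catalase (CAT) were followed in bovine blastocysts that developed with or without buthionine sulfoximine (BSO). These 4 genes, of 15229 with a symbol, were taken by their symbols in the platform annotation, which gave 5 probes among the 43794 gene probes of the array: 2 for SOD1 and 1 for each of the others. The rule used no measured value, although the genes were picked with earlier results of these data known, and all 5 probes are reported. Oocytes from slaughterhouse ovaries were matured, fertilized and cultured in vitro, in a synthetic oviductal fluid medium given in 3 successive steps. BSO embryos received 0.4 mM BSO from day 3 to day 5 and 0.01 mM from day 5 to day 7, and control embryos had the same media without BSO. Both kinds of blastocyst were taken at 196 h from fertilization, and each of the 4 pools of a treatment held 10 of them. RNA of each pool was amplified over 2 rounds, and every array held BSO in one dye (Cy3 or Cy5) and control in the other.

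Superoxide is a by-product of mitochondrial respiration and of NADPH oxidases. Superoxide dismutases turn it into hydrogen peroxide and oxygen. SOD1 carries copper and zinc and works mainly in the cytosol, SOD2 carries manganese and works in the mitochondrial matrix, and SOD3 is the secreted copper and zinc form. Catalase, a haem enzyme of peroxisomes, breaks hydrogen peroxide down to water and oxygen without using glutathione. Glutathione peroxidases do the same work with glutathione, whose synthesis BSO blocks at glutamate-cysteine ligase. The comparison therefore asks how transcripts of the glutathione-independent enzymes stood when that synthesis was blocked. Glutathione itself was not measured in the data used here.

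The 8 arrays comprised 4 with BSO in Cy3 and 4 with BSO in Cy5. They lay on 3 slides, with 2 arrays on Slide114, 2 on Slide115 and 4 on Slide25. An array with BSO in Cy5 and the array at the same position in the order with BSO in Cy3 were averaged to 1 replicate. Replicates 1 and 2 thus came from Slide114 and Slide115 together, and replicates 3 and 4 from Slide25. Slide114 carried BSO in Cy3 alone and Slide115 BSO in Cy5 alone, so on that pair slide and dye cannot be told apart, while Slide25 held both orientations. The labels do not say which arrays shared pools, nor whether the pools came from separate cultures, so p-values measure the spread between these replicates, which may be technical. Unless another scale is named, values are the deposited log2 ratios, BSO over control, so a positive value means a brighter BSO channel. Brightness was judged against the 95th percentile of the 153 negative control spots of the same array and dye, called the background limit here. Trophectoderm, epiblast and hypoblast markers had median brightness percentiles of 94.8, 65.8 and 94.4 among gene probes. All of those with a probe (14, 9 and 7) passed the filter on dim probes. Above the limit in both channels on 8 of 8 arrays were 13 of 14, 7 of 9 and 6 of 7 of them. These included the epiblast markers NANOG and SOX2 and the trophectoderm factor CDX2. Some markers of cells that could accompany embryos were also above the limit in both channels on 8 of 8 arrays. They were 6 of 12 for cumulus and granulosa cells, 5 of 6 for blood cells and 2 of 5 for spermatozoa. Of all 43794 gene probes, 23543 were above the limit in this way, so such counts alone do not show that these cells were present. The median percentiles over each list were 58.8, 58.0 and 19.8. LHCGR, AMH, ODF1 and AKAP4 were above the limit in both channels on 0 arrays. Of these only AMH failed the filter on dim probes, which a single channel can pass.

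None of the 5 probes passed the test for a BSO effect at an adjusted p under 0.05 (limma, Benjamini-Hochberg adjustment over 36995 probes). Over all probes tested, 0.595% passed. SOD2 came nearest, with a mean log2 ratio of 0.21 and a positive value in 4 of 4 replicates. The means of the SOD1 probes had opposite signs on the 2 slide sets, above 0 on Slide114 and Slide115 and below 0 on Slide25. On Slide25 the negative sign rested on replicate 4, since replicate 3 was close to 0 for both probes. CAT was below 0 on Slide114 and Slide115 and close to 0 on Slide25. SOD3 was at the background limit, and its sign on each array followed the dye that carried BSO. It entered the test only through its BSO channel, so no BSO result is read from it.

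**Figure D1:**
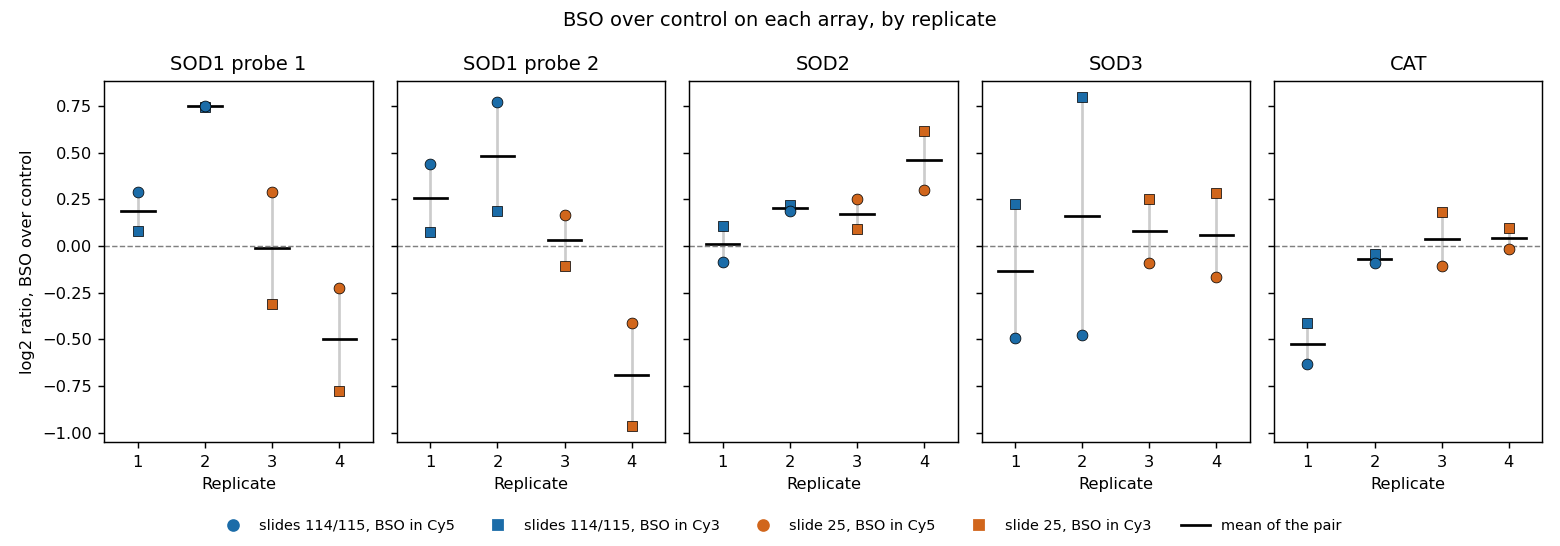
Deposited log2 ratio of BSO over control (vertical axis) for the 5 probes, one panel each, by replicate (horizontal axis). Circles are arrays with BSO in Cy5 and squares arrays with BSO in Cy3, in blue for Slide114 and Slide115 and orange for Slide25, with a black bar for the mean of the pair. Both SOD1 probes run from up to 0.75 or 0.77 in replicate 2 down to -0.78 or -0.96 in replicate 4, while SOD2 is above 0 on 7 of 8 arrays.

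SOD1 was measured by EMBV3_26423 (probe 1) and EMBV3_39702 (probe 2), and both were bright: probe 1 had a median raw intensity of 6723 in the BSO channel and 7091 in the control channel, and probe 2 of 3245 and 3366. Probe 1 read 0.29 with BSO in Cy5 and 0.080 with BSO in Cy3 in replicate 1, 0.75 and 0.75 in replicate 2, 0.29 and -0.31 in replicate 3, and -0.22 and -0.78 in replicate 4. Probe 2 read, in the same order, 0.44 and 0.076, then 0.77 and 0.19, then 0.17 and -0.11, then -0.41 and -0.96. The 2 probes had the same sign on 8 of 8 arrays, with replicate 2 highest and replicate 4 lowest for both. On single arrays they differed by 0.0039 to 0.56 on the log2 scale, with a median of 0.17.

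Averaged over dyes, SOD1 probe 1 stood at 0.19, 0.75, -0.0098 and -0.50 in replicates 1 to 4. Its mean was 0.11 ± 0.21 (limma SE, n = 4), with a 95% confidence interval of the fold from 0.740 to 1.57 and an adjusted p of 0.766 (limma). SOD1 probe 2 stood at 0.26, 0.48, 0.030 and -0.69, with a mean of 0.020 ± 0.20 (SE, n = 4), an interval from 0.702 to 1.47-fold and an adjusted p of 0.958 (limma). The mean of each SOD1 probe was thus smaller than the spread between its replicates (SD 0.52 and 0.51). Leaving out replicate 2 turned the mean of probe 1 to -0.11 and that of probe 2 to -0.13, and leaving out replicate 1 turned that of probe 2 to -0.060. Without replicate 4 the means were 0.31 and 0.26.

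Of the 5 probes, those of SOD1 had the largest differences between Slide25 and Slide114 and Slide115, and these did not pass the test. Probe 1 averaged 0.47 ± 0.20 (limma SE, 2 replicates) on Slide114 and Slide115 and -0.26 ± 0.20 on Slide25. Probe 2 averaged 0.37 ± 0.20 and -0.33 ± 0.20. Both negative means on Slide25 rested on replicate 4 (-0.50 and -0.69), with replicate 3 at -0.0098 and 0.030. All 4 arrays of Slide114 and Slide115 were above 0 for each probe, against 1 of 4 arrays of Slide25, but the arrays of the 2 sets overlapped for both probes. Among all probes, 6.07% had sets that did not overlap.

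The difference, Slide25 minus Slide114 and Slide115, was -0.72 ± 0.28 for SOD1 probe 1 (95% confidence interval -1.53 to 0.088) and -0.70 ± 0.28 for probe 2 (-1.51 to 0.12). Neither passed the test, with adjusted p-values of 0.680 and 0.681 (limma, 2 replicates per set and unadjusted p-values of 0.0679 and 0.0750). In size they ranked at the 98.3 and 98.1 percentiles of the absolute differences of all 36995 probes. No probe on the array passed this test at an adjusted p under 0.05 (0%), and 7.63% had an unadjusted p under 0.05. Replicates 1 and 2 above 0 with replicates 3 and 4 below 0 occurred at SOD1 probe 1 and at 3.93% of all probes. The difference of probe 1 was smaller without replicate 2 (-0.44) or replicate 4 (-0.48) and larger without replicate 1 or replicate 3 (-0.97 without the latter). That of probe 2 was -0.34 without replicate 4 and -1.06 without replicate 3.

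**Figure D2:**
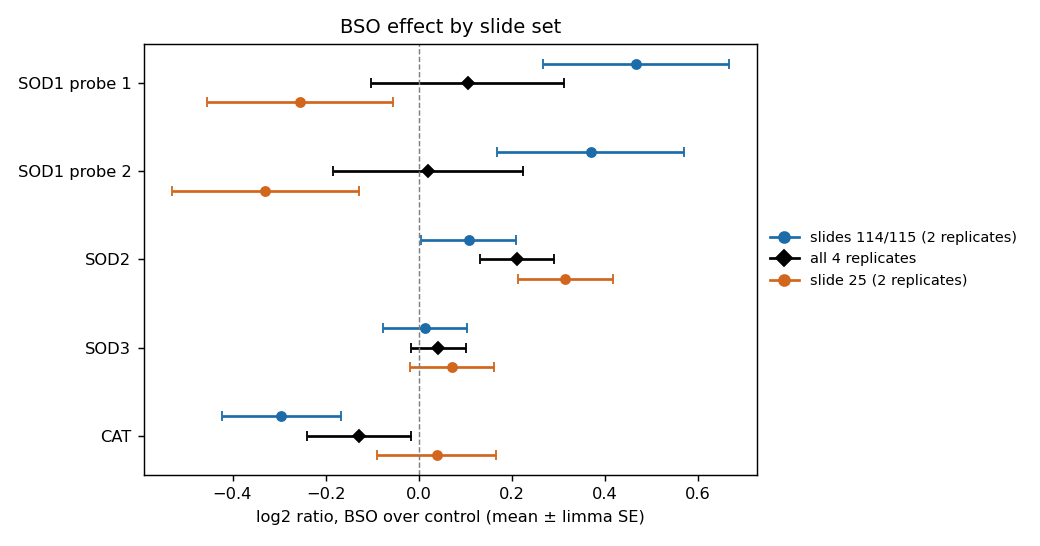
Mean log2 ratio of BSO over control (horizontal axis) of each probe (rows) on Slide114 and Slide115 (blue, 2 replicates), on Slide25 (orange, 2 replicates) and over all 4 replicates (black diamond), with bars of 1 limma SE to each side. The SOD1 means change from 0.47 and 0.37 to -0.26 and -0.33 between the sets, and the CAT mean from -0.30 to 0.039.

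The raw intensities of the SOD1 probes were compared between the slide sets in each channel. In the control channel, probe 1 read 2423 to 6147 on Slide114 and Slide115 and 8034 to 11861 on Slide25. As a percentile of all gene probes in the same channel of the same array, which a change of scanner gain leaves in place, it was 93.7 to 97.0 against 97.4 to 98.4. The control channels of the 2 sets did not overlap for SOD1 probe 1, as was the case for 20.6% of all probes. In the BSO channel it read 4682 to 7369 on Slide114 and Slide115 and 5499 to 12242 on Slide25. Its percentiles there overlapped, at 95.8 to 97.5 against 96.3 to 98.5, with both ends of the range higher on Slide25. For probe 2 the control channel was also higher on Slide25, at percentiles of 94.2 to 96.8 against 90.1 to 94.8, with an overlap. Its BSO channel overlapped too, at 91.9 to 97.0 on Slide25 against 92.8 to 95.6. This split by channel was examined after the ratios had been seen.

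Markers of the blastocyst's own cell types were set beside the SOD1 replicates, because pools of 10 embryos can differ in their share of each cell type. In such bulk RNA, fewer cells of a type and less RNA per cell cannot be told apart. The trophectoderm markers had a median log2 ratio of -0.29 in the first replicate pair (Slide114 and Slide115) and of -0.16 in the other (Slide25), and -0.24 over all 4. Over the epiblast markers it was -0.051 and -0.098, and over the hypoblast markers -0.0069 and -0.068. The 3 brightest epiblast markers, picked out after their values were seen, did not share an order over replicates 1 to 4. NANOG read -0.099, 1.74, -0.19 and -1.51, with replicate 2 highest and replicate 4 lowest, as for both SOD1 probes. POU5F1 read 0.66, 0.065, -0.33 and -0.46, above 0 on Slide114 and Slide115 and below 0 on Slide25. DPPA3 read 0.28, 0.33, 0.63 and 0.71, above 0 on both slide sets. The part of cell composition in the SOD1 values was not tested.

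SOD2 was read by EMBV3_29649 at median raw intensities of 15351 (BSO) and 12595.0 (control), at the 98.7 percentile of all gene probes. It gave ratios of -0.086 with BSO in Cy5 and 0.11 with BSO in Cy3 in replicate 1, 0.19 and 0.22 in replicate 2, 0.25 and 0.091 in replicate 3, and 0.30 and 0.62 in replicate 4. It was above 0 on 7 of 8 arrays, with replicate 1 in Cy5 the exception. The replicates stood at 0.010, 0.20, 0.17 and 0.46. Their mean was 0.21 ± 0.080 (limma SE, n = 4), or 1.16-fold, with a 95% confidence interval from 1.00 to 1.34-fold. The unadjusted p was 0.0490, which 26% of all probes also fell under, and the adjusted p was 0.190 (limma). A sign shared by 4 of 4 replicates occurred at 38.4% of probes. None of the 16 alternatives brought SOD2 past the threshold. Those that changed only the filter, matching or block reuse the same deposited values, so they left the mean at 0.21 by construction. In the others it stayed above 0, from 0.13 to 0.28.

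On Slide114 and Slide115 SOD2 averaged 0.11 ± 0.10 (limma SE), and on Slide25 it averaged 0.31 ± 0.10. The difference of 0.21 ± 0.14 had a 95% confidence interval from -0.21 to 0.62 and an adjusted p of 0.785 (limma). It ranked at the 74.5 percentile of absolute differences. It was 0.11 without replicate 1, 0.35 without replicate 3, 0.063 without replicate 4 and 0.41 with median centring. Unlike SOD1, the mitochondrial enzyme's probe thus had the same sign on both slide sets. Within Slide25 alone its unadjusted p was 0.0406, a level that 15.6% of all probes reached there, and its adjusted p was 0.307 (limma).

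SOD3, read by EMBV3_38262, was the only dim member. Its raw intensity was 106 to 242 in the BSO channel (median 179) and 85.4 to 167 in the control channel (median 113). In Cy5 it was below the background limit on all 8 arrays, at 0.63 to 0.91 times the limit, and in Cy3 it was at 0.99 to 1.08 times the limit and just above it on 7 arrays. It passed the filter on dim probes with no array to spare, since the BSO channel was above the limit on 4 arrays, all with BSO in Cy3, and the control channel on 3. The SOD3 probe was thus not well above background on any array, and its ratios bound no change of the secreted enzyme's transcript.

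**Figure D3:**
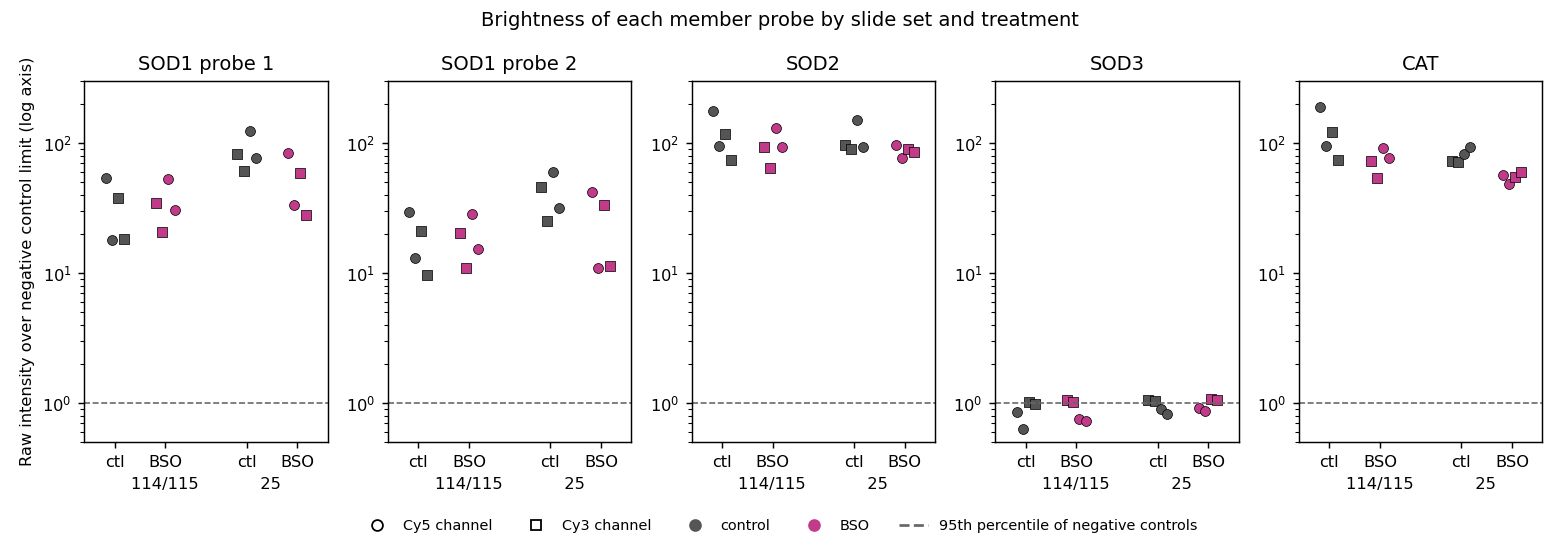
Raw intensity of the 5 probes over the background limit of the same array and dye (vertical axis, log scale), for the control (grey) and BSO (pink) channel of each array by slide set (horizontal axis). Circles are Cy5 and squares Cy3, and the dashed line at 1 is the limit. The SOD1, SOD2 and CAT probes lie above it on all 8 arrays in both channels, and SOD3 lies between 0.63 and 1.08 times the limit.

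The SOD3 ratios were -0.49 with BSO in Cy5 and 0.22 with BSO in Cy3 in replicate 1, -0.48 and 0.80 in replicate 2, -0.092 and 0.25 in replicate 3, and -0.16 and 0.29 in replicate 4. Every array with BSO in Cy5 was below 0 and every array with BSO in Cy3 above 0, a split seen in this direction at 9.13% of all probes. Averaging the dyes left -0.14, 0.16, 0.081 and 0.061 in the 4 replicates. Their mean was 0.042 ± 0.059 (limma SE, n = 4). It is given without a test, since the probe passed the filter only through its BSO channel. The 2 slide sets had means of 0.013 and 0.071, and the difference of 0.058 ± 0.13 had an adjusted p of 0.936 (limma) and ranked at the 32.4 percentile of absolute differences.

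CAT was read by EMBV3_24218 at median raw intensities of 11740 (BSO) and 11831 (control), at the 98.3 percentile of all gene probes. It gave -0.63 with BSO in Cy5 and -0.41 with BSO in Cy3 in replicate 1, -0.092 and -0.043 in replicate 2, -0.11 and 0.18 in replicate 3, and -0.013 and 0.095 in replicate 4. Replicate 1 lay apart from the others in both dyes. The replicates stood at -0.52, -0.067, 0.037 and 0.041. The mean was -0.13 ± 0.11 (limma SE, n = 4), with a 95% confidence interval from 0.749 to 1.12-fold and an adjusted p of 0.494 (limma). Without replicate 1 the mean was 0.0035, so the negative mean of CAT rested on that replicate.

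All 4 CAT arrays of Slide114 and Slide115 were below 0, and 2 of 4 arrays of Slide25 were. The sets averaged -0.30 ± 0.13 and 0.039 ± 0.13 (limma SE). The difference of 0.33 ± 0.18 had a 95% confidence interval from -0.18 to 0.85 and an adjusted p of 0.740 (limma), and it ranked at the 87.7 percentile of absolute differences. Leaving out replicate 1 reduced it to 0.11, and leaving out replicate 2 raised it to 0.56. Replicates 1 and 2 below 0 with replicates 3 and 4 above 0, as at CAT, occurred at 4.98% of all probes.

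CAT was dimmer on Slide25 in both channels, relative to the other probes of the same channel. Its raw control intensity was 12449 to 20261 on Slide114 and Slide115 and 7974 to 11213 on Slide25. As percentiles, the control channel lay at 98.3 to 99.1 and 97.6 to 98.2, and the BSO channel at 98.3 to 98.6 and 97.8 to 98.2. In neither channel did the percentiles of the sets overlap, as for 20.6% of all probes in the control channel and 17.5% in the BSO channel. SOD1 probe 1 thus lay higher on Slide25 in the control channel, and CAT lay lower there.

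**Figure D4:**
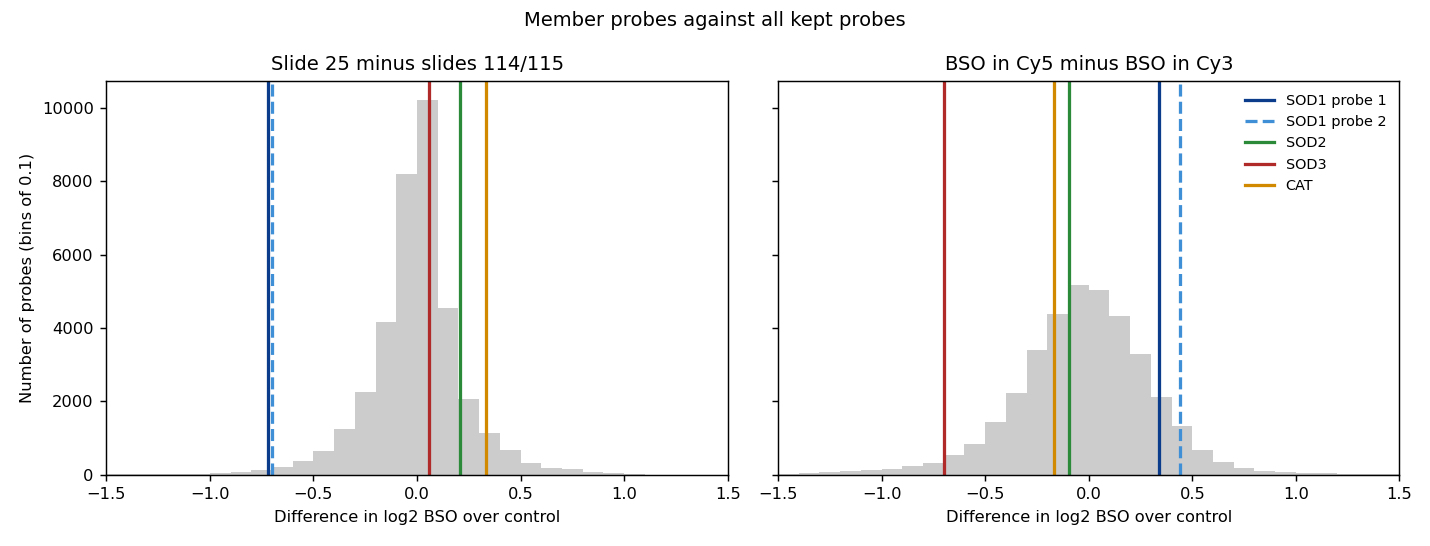
Number of probes (vertical axis) by the difference in log2 BSO over control (horizontal axis, bins of 0.1) between Slide25 and Slide114 and Slide115 on the left and between BSO in Cy5 and BSO in Cy3 on the right, over the 36995 tested probes, with coloured lines at the 5 probes. On the left both SOD1 probes, at -0.72 and -0.70, lie far from the centre. On the right SOD3 lies lowest of the 5 at -0.70. Probes beyond the ends of the axes are not drawn.

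The single-array ratio of both SOD1 probes differed with the dye that carried BSO. SOD1 probe 1 averaged 0.28 with BSO in Cy5 and -0.065 with BSO in Cy3, a difference of 0.34 ± 0.097 with an adjusted p of 0.0134 (limma, 4 replicates). SOD1 probe 2 averaged 0.24 and -0.20, a difference of 0.44 ± 0.071 with an adjusted p of 0.000562. Such a difference was common on these arrays, since 52.6% of all probes passed the same test, and it cancels in a replicate that averages both dyes. SOD1 probe 1 no longer passed without replicate 3 (adjusted p = 0.0821, limma) or without replicate 4 (adjusted p = 0.0594). SOD2 and CAT did not pass, at -0.095 ± 0.081 and -0.17 ± 0.065 with adjusted p-values of 0.341 and 0.0521 (limma). When arrays were only centred on the median, their differences took the other sign and passed, at 0.45 for SOD2 (adjusted p = 0.0167, limma) and 0.35 for CAT (adjusted p = 0.00921). SOD3 averaged -0.31 with BSO in Cy5 and 0.39 with BSO in Cy3, a difference of -0.70 that is given without a test, since the probe passed the filter only through arrays with BSO in Cy3 and was at most 1.08 times the limit.

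The brightest probe of each member was set against the kept probes of other genes within 1 log2 unit of its brightness, over the 8 arrays that all of them share. The measure was the mean absolute difference of the log2 ratio, and it is a description of these arrays. Nearest to SOD1 probe 1 were ARL14EP at 0.166, COPB1, a coatomer subunit, at 0.183 and UBA2, a subunit of the SUMO-activating enzyme, at 0.185, against a median of 0.526 over 1036 genes. Like SOD1, COPB1 and UBA2 averaged above 0 on Slide114 and Slide115, at 0.34 and 0.41, and below 0 on Slide25, at -0.20 and -0.21. ARL14EP averaged 0.47 and 0.024. These genes were picked by their ratios on the same 8 arrays, so a shared pattern over slide sets is partly fixed by the choice. Nearest to SOD2 were SLMAP at 0.0932, LSM3, a component of the U6 snRNA-binding ring, at 0.101 and NONO, a nuclear RNA-binding protein, at 0.111 (median 0.338 over 560 genes). Nearest to CAT were SMAD1, a transducer of bone morphogenetic protein signals, at 0.0776, ZWILCH, a kinetochore protein, at 0.0802 and TMBIM6, a protein of the endoplasmic reticulum membrane, at 0.102 (median 0.369 over 651 genes). For SOD3 they were CRB3 at 0.0908, G6PC3 at 0.0991 and MAK at 0.105 (median 0.359 over 7300 genes), all of them dim like SOD3 by construction.

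Genes that work before, beside and above these enzymes were read from 6 lists, each gene by its brightest probe. A stricter filter, used as an alternative, asked for 2 times the background limit. CCS, CYBA, FOXO3, GPX2, HAO2, NOX1, PEX13 and SIRT3, named below, failed it, with mean log2 intensities of 7.30 to 7.93. SOD3 was at 7.10. Of the superoxide sources tested, all but XDH, AOX1, RAC1 and RAC2 lay at 7.19 to 7.81, so that list rests largely on dim probes. Over all 13678 genes the median log2 ratio was 0.017, 54.6% were above 0, 13.8% were higher and 14% lower at an unadjusted p under 0.05, and 0.629% passed the adjusted threshold. Of 17 sources of superoxide, 14 were tested, with a median of 0.024 and 8 above 0. At an unadjusted p under 0.05, 1 was higher and 2 were lower, and 0 passed the adjusted threshold (limma). RAC2, a small GTPase of the phagocyte NADPH oxidase, was lowest at -0.58 ± 0.096 (adjusted p = 0.0685, limma), and the oxidase NOX1 highest at 0.20 ± 0.070 (adjusted p = 0.165). RAC2 passed in a fit on all 8 arrays with the replicate block (adjusted p = 0.00402, limma, estimated correlation within replicates -0.0076). It also passed with the block and a dye term (adjusted p = 0.00457, limma, estimated correlation 0.568) and with array weights (adjusted p = 0.0451, limma). In these fits 4309, 4463 and 1128 of all 36995 probes passed, against 220 in the reported test. With a correlation near 0, the block fit counts both arrays of a replicate almost as separate replicates. XDH, the xanthine dehydrogenase, stood at -0.26 ± 0.13 and CYBA, the shared small subunit of NADPH oxidases, at -0.059 ± 0.040, and neither passed.

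Of 14 genes that handle copper or manganese, the metals of the dismutases, 13 were tested, with a median of 0.052 and 8 above 0. The list mixes importers and chaperones with exporters, so its median does not measure metal supply. ATOX1, a copper chaperone that hands copper to the Golgi copper pumps, was the 1 gene of the 6 lists that passed the adjusted threshold. It fell by 0.41 on the log2 scale, with replicates at -0.49, -0.42, -0.33 and -0.41 and an adjusted p of 0.0484 (limma), where 0.307% of all genes were called lower. ATOX1 was below 0 in 4 of 4 replicates. On this narrow margin it passed in 8 of 16 alternatives, with adjusted p from 0.00186 to 0.190 (limma), and in none of those that left out a replicate. The passes include the fits on all 8 arrays and arrays matched in crossed order, in which 4234 to 10197 of 36995 probes passed. CCS, the chaperone that loads copper into SOD1, stood at -0.0078 ± 0.045 by its brightest probe (adjusted p = 0.925) and at 0.058 as the mean over its 4 probes. Higher at an unadjusted p under 0.05 were 4 genes, of which ATP2C1, a Golgi pump for calcium and manganese, was highest at 0.36 ± 0.13 (adjusted p = 0.178). SLC31A1, the copper importer of the cell membrane, was another of them and was singled out after its values were seen: its brightest probe read 0.25, 0.34, 0.42 and 0.41 in the 4 replicates, with a mean of 0.36 ± 0.044 (adjusted p = 0.0541, limma), and the mean over its 3 probes was 0.13.

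For catalase, the lists held the peroxisome's import machinery and its peroxide-making oxidases. Of 16 import genes, 13 were tested, with a median of -0.0099 and 5 above 0, and 1 was higher and 2 were lower at an unadjusted p under 0.05. PEX5, the receptor that carries enzymes of the peroxisomal matrix, read -0.26 ± 0.054 by its brightest probe (adjusted p = 0.0848, limma) and -0.085 as the mean over its probes. PEX16, which helps to place proteins in the peroxisomal membrane, stood at -0.62 ± 0.16 (adjusted p = 0.111), and PEX13, of the docking complex, at 0.26 ± 0.052 (adjusted p = 0.0813). Of 10 oxidases, 6 were tested, with a median of 0.050 and 5 above 0. HAO2, a hydroxy acid oxidase, was the 1 gene with an unadjusted p under 0.05, at 0.31 ± 0.10 by its brightest probe (adjusted p = 0.155, limma) and 0.10 as the mean over its 3 probes. No import gene and no oxidase passed the adjusted threshold over replicates. With the replicate block on all 8 arrays, PEX5 (adjusted p = 0.0111, limma), PEX16 (0.0134), PEX13 (0.0243) and HAO2 (0.0437) passed. All 4 also passed with a dye term added (adjusted p from 0.0164 to 0.0414, limma). These fits called 4309 and 4463 of all 36995 probes, against 220 in the reported test.

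Other enzymes that remove peroxide had a median of -0.13, with 5 of 14 tested genes above 0. At an unadjusted p under 0.05, 0 were higher and 4 were lower, against 14% of all genes lower, and 0 passed the adjusted threshold (limma). The lower genes were PRDX2, GPX2, GPX3 and GPX5. Only PRDX2 was bright, with a mean log2 intensity of 12.5 against 7.69 to 7.80 for the GPX genes among them. PRDX2, a cytosolic peroxiredoxin, was lowest of these at -0.62 ± 0.089 (adjusted p = 0.0623), and GPX2, a glutathione peroxidase, stood at -0.23 ± 0.066 (adjusted p = 0.127). The mitochondrial peroxiredoxin PRDX3 stood at 0.090 ± 0.081 and the glutathione peroxidase GPX1 at -0.11 ± 0.082, and neither passed. Of 14 regulators of SOD and CAT transcription, 11 were tested, with a median of 0.030, 2 higher and 3 lower at an unadjusted p under 0.05. SIRT3, a mitochondrial deacetylase that acts on SOD2, read -0.37 ± 0.058 by its brightest probe (adjusted p = 0.0653) and -0.12 as the mean over its probes. Its brightest probe failed the stricter filter. SIRT1, a nuclear deacetylase, read 0.29 ± 0.055 (adjusted p = 0.0776) and 0.0012 over its probes. FOXO3, a transcription factor known to act on SOD2 and CAT, stood at -0.090 ± 0.049 (adjusted p = 0.304). With the replicate block on all 8 arrays, PRDX2 (adjusted p = 0.0361, limma), GPX2 (0.0429) and SIRT3 (0.00877) passed. All 3 also passed with a dye term added (adjusted p from 0.00316 to 0.0421, limma). Of all 36995 probes, 4309 and 4463 passed in these fits, against 220 in the reported test. On replicate means, PRDX2 passed under the stricter filter (adjusted p = 0.0489, limma), where 366 of 13498 probes passed. SIRT3 passed with array weights (adjusted p = 0.0469, limma), where 1128 of 36995 did. SIRT1 passed only with arrays matched in crossed order (adjusted p = 0.0243, limma), where 10197 did. In all 6 lists, 0 genes had a slide difference at an unadjusted p under 0.05 (limma), against 8.53% of all genes, and 0 passed the adjusted threshold.

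**Figure D5:**
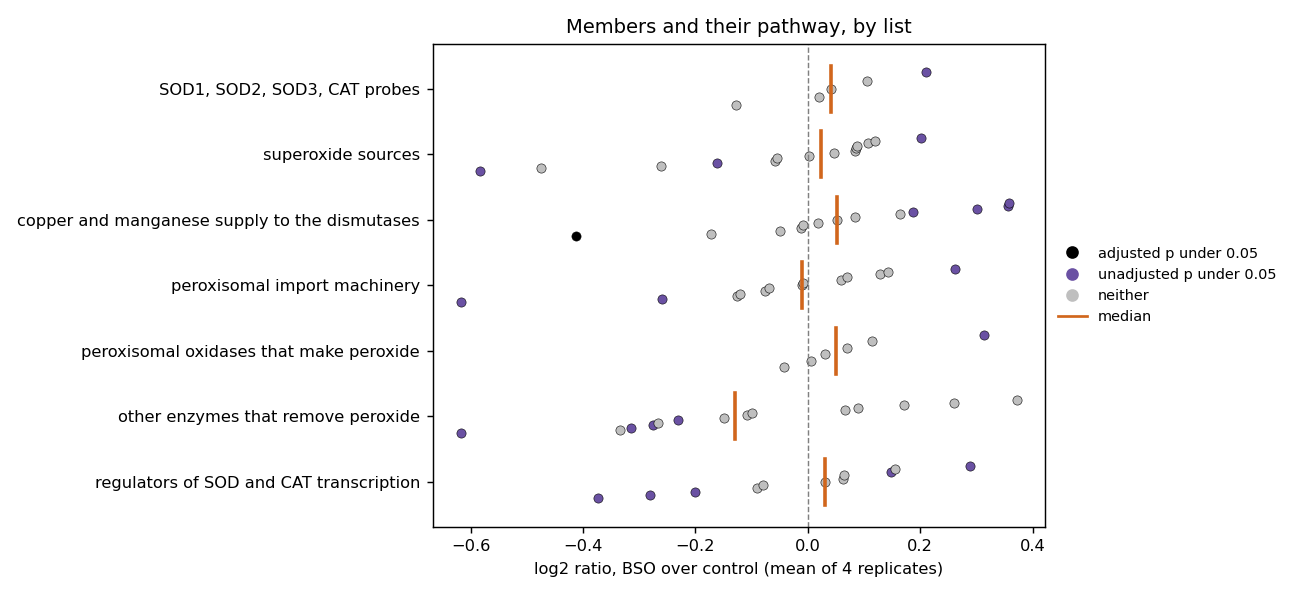
Mean log2 ratio of BSO over control (horizontal axis) of the 5 probes and of each tested gene of the 6 lists (rows), in black for an adjusted limma p under 0.05, purple for an unadjusted p under 0.05 and grey for neither, with an orange bar at the median of each row. ATOX1 at -0.41 is the 1 black point, and the list of other enzymes that remove peroxide has its median at -0.13.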

How the data were processed

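The deposited table held 1 log2 value per probe and array. The submitters' processing notes name limma without a version, and the steps behind these values are not given in the sources used here. Deposited scanner files held raw spot intensity at 532 nm (Cy3) and 635 nm (Cy5), per the file headers, and were used for brightness. Set against loess-normalized scanner ratios, the deposited values were BSO over control on all 8 arrays (r over probes 0.889 to 0.989), with medians of 0.0011 to 0.013.

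A probe was kept if above the background limit on at least 4 arrays in the BSO or the control channel, which left 36995 of 43794. Replicate means were tested against 0, and slide sets and dye orientations against each other, with limma 3.58.1 in R 4.3.3 (lmFit, eBayes, Benjamini-Hochberg adjustment), after a test on simulated data. Files were read with jsonlite 2.0.0. The number of arrays limits the precision. Arrays were matched by their order within slides, a rule not in the labels: deviations from the orientation means correlated at 0.726 to 0.853 in matched and at most at -0.027 in unmatched arrays, although deviations within an orientation sum to 0, which pushes unmatched values down.

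Symbols came from the platform annotation (21790 probes with 1 symbol, 22004 unnamed), updated by a RefSeq table. Neither names the files' build, so no coordinates are given, and sequences were not used here. The members and lists were chosen with earlier results of these data known. Named from the lists were 8 preset genes and, per list, the lowest and highest ratio at an unadjusted p under 0.05. Likeness named the 3 nearest genes per member. Alternatives changed the background correction, normalization, filter, matching, block, weights and replicates.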

Additional observations from a re-analysis of the deposited data

Results flagged for a closer look

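The difference of the BSO effect between Slide25 and Slide114 and Slide115 was noted for SOD1 probe 1, at -0.72, and for CAT, at 0.33, because both replicates of one slide set lay on the other side of 0 from both replicates of the other set. The tests of these differences did not pass (adjusted p = 0.680 and 0.740, limma). The ratio differed with the dye that carried BSO, by a passed test, for SOD1 probe 1 (0.34) and SOD1 probe 2 (0.44), as it did for 52.6% of all probes. The SOD3 value of -0.70 was marked in the same way, but its spot was not well above background and entered only through arrays with BSO in Cy3, so no test is read from it. Single arrays stood apart from the other 3 of their dye orientation at SOD3, with 0.80 in replicate 2 with BSO in Cy3, and at CAT, with -0.63 in replicate 1 with BSO in Cy5. Chance alone would mark about 1 group in 20 in this way.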

How the results depend on the processing

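No BSO effect of SOD1, SOD2 or CAT passed the threshold under any alternative run (limma, lowest adjusted p 0.0634, for SOD2 with arrays matched in crossed order). SOD3 did not pass either, but no BSO test is read from it, since it passed the filter only through its BSO channel. It has no value under the stricter filter, which it failed. Over all probes the count of 220 was less stable. It was 0 with normexp and loess on the scanner values (8297 at an unadjusted p under 0.05), 0 with median centring (8984), 0 with slide set as a block (9632) and 0 on leaving out any single replicate. It was 468 with loess and no background correction, 366 under the stricter filter and 1128 with array weights. Fits on all 8 arrays gave 4309 with the replicate block, 4463 with the replicate block and a dye term and 4234 with no replicate block, and arrays matched in crossed order gave 10197. The pairing thus rests on the matching rule, and the cause of these shifts was not tested. For slide differences the count of 0 became 11160 in crossed order, which averages arrays whose deviations run against each other, and both SOD1 probes and CAT passed there alone (adjusted p = 5.8e-06, 1.5e-05 and 0.0016). Dye differences fell from 19454 to 12342 of 36995 probes with median centring. Under the stricter filter 7084 of 13498 tested probes passed, about the same share as the 52.6% in the reported test. Signs turned with median centring for the SOD3 effect (-0.0062) and the dye differences of SOD2 (0.45) and CAT (0.35), and these 2 then passed (adjusted p = 0.0167 and 0.00921, limma). They turned without replicate 1 for the effects of SOD1 probe 2 (-0.060) and CAT (0.0035) and the SOD3 slide difference (-0.090), and without replicate 2 for SOD1 probe 1 (-0.11) and probe 2 (-0.13). CCS, near 0, became 0.024 with no background correction, 0.025 with median centring, 0.0049 and 0.024 without replicates 1 and 2, and 0.017 with array weights. Over the fits that left out 1 replicate, the effects ranged from -0.11 to 0.31 for SOD1 probe 1, -0.13 to 0.26 for SOD1 probe 2, -0.18 to 0.0035 for CAT and -0.037 to 0.024 for CCS, and the SOD3 slide difference from -0.090 to 0.21. CAT's dye difference also passed, with its reported sign, when arrays were scaled (adjusted p = 0.0440) and without replicate 2 (0.0409).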
